A study of Mus musculus with 22 samples.

Results

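The genotype difference in mouse soleus under triiodothyronine (T3), the active thyroid hormone, was taken from 13 of the 22 libraries of the series. It compared 7 libraries labelled TRa1 KO and T3 with 6 labelled WT and T3, and the members were chosen by these labels alone. TRa1 is thyroid hormone receptor alpha 1, a product of the gene Thra. The remaining 9 libraries, 4 of TRa1 KO and 5 of WT, had received vehicle and serve as the untreated comparison. All labels gave male mice and soleus, a postural muscle of the lower leg that holds slow and fast fibres. The allele, the strain, the age, the dose and length of the T3 treatment and the tissues in which the receptor was lost were not given in the sources used here. Labels also did not say that each library came from its own mouse, so the p-values rest on spread that may be technical.

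T3 enters muscle fibres and binds receptors that sit on DNA, where the bound receptor raises the transcription of its target genes and the unbound receptor can repress them. TRa1 is the main form in skeletal muscle, and the second receptor gene is Thrb. Thyroid hormone is known in soleus for moving fibres from slow towards fast contractile proteins and for acting on the calcium pumps of the sarcoplasmic reticulum. The comparison asks how soleus without TRa1 differed from normal soleus when both had received the hormone.

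Promoters of 4 genes on which the results turn are shown because these genes differed in opposite directions with genotype. Strit1 and Tnni1 were higher in KO, and Mylpf and Myh2 were lower. Each run is the 250 bases before the RefSeq start on GRCm38.p6, read along the gene. Strit1 lies at chr3:63483907-63484156 (minus strand), Tnni1 at chr1:135799171-135799420 (plus, the first of 2 windows listed), Mylpf at chr7:127211358-127211607 (plus) and Myh2 at chr11:67170777-67171026 (plus). Capitals mark the E-box CAGCTG, a palindrome bound by myogenic factors and thus the same on both strands.
Strit1: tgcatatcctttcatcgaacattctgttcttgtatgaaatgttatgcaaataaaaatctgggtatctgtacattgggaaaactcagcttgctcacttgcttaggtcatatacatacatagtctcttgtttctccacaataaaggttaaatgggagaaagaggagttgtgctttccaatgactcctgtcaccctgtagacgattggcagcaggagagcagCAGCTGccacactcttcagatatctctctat
Tnni1: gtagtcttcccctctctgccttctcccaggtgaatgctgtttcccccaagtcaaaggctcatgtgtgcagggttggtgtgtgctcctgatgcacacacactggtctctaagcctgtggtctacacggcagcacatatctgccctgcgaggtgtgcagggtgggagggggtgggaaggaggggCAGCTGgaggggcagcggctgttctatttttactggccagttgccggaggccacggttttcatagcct
Mylpf: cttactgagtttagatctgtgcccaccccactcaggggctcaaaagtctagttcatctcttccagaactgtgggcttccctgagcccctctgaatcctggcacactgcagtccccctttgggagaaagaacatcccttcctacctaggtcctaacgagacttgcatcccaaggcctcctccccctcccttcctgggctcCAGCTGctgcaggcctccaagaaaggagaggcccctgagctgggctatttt
Myh2: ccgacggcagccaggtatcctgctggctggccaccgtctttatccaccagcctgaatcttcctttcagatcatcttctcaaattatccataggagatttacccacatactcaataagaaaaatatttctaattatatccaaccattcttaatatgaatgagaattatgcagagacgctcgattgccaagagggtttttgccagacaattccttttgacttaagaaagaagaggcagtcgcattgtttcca
The letters CAGCTG occurred in the windows of Strit1, Tnni1 and Mylpf and not in that of Myh2, so they stood on both sides of the genotype difference. In windows that ran to 50 bases after the start, they occurred in 12.8% of all 27025 promoters and in 12.0% of the 10975 tested genes that had a promoter in the table. The share was 14.2% of the 353 such genes called higher in KO and 17.4% of the 258 called lower. The letters AGGTCA, which nuclear receptors recognise, were searched on both strands and stood in 10.7% of the tested genes, 10.8% of those higher and 11.2% of those lower. These shares describe letters and not binding.

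Of 15082 genes tested, 840 were called (5.57%) at a Benjamini-Hochberg adjusted p below 0.05 in the quasi-likelihood test of edgeR. There were 487 genes higher in KO (3.23%) and 353 lower (2.34%). These shares are the background for the counts of each gene list below. Levels below are counts per 1e+06 counts after scaling (CPM), and log2 fold changes are KO over WT ± the standard error of the fit. A value in parentheses after a fold change is its adjusted p. Sln and Strit1, regulators of the calcium pump, several slow contractile genes and Idh2 stood on the higher side, and fast contractile genes, Hr and Prune2 on the lower side. The difference was at least 2-fold for 322 of the called genes, 200 higher and 122 lower. Protein-coding genes made up 719 of the calls and lincRNA genes 52. Scaling by total counts alone gave 1459 calls, 1254 higher and 205 lower, with the median over all genes at 0.16 in place of -0.00.

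**Figure D1:**
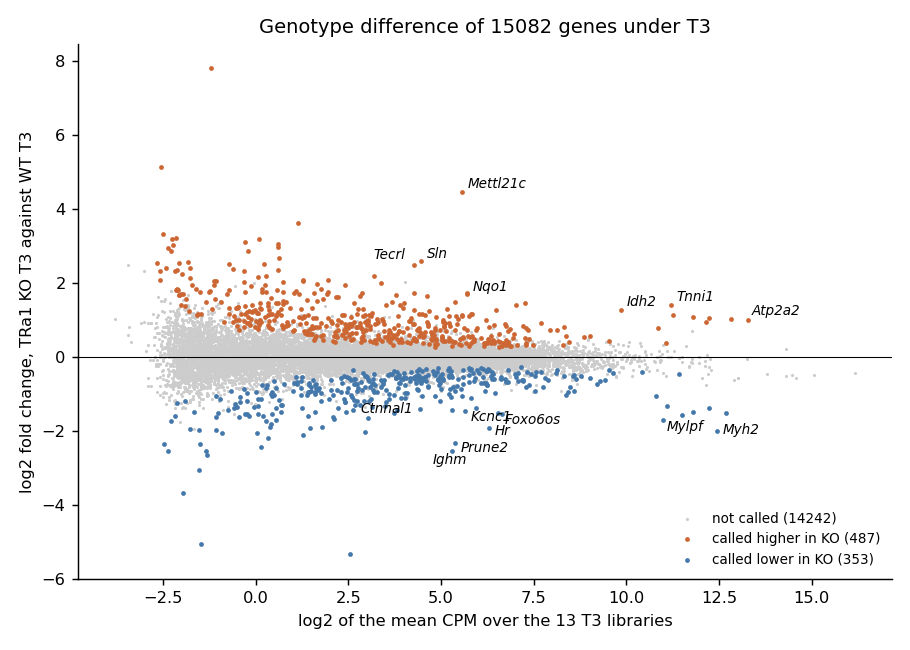
Each point is 1 of the 15082 genes tested. The x axis is the log2 of its mean CPM over the 13 T3 libraries and the y axis its log2 fold change of TRa1 KO T3 against WT T3. The 487 genes called higher and 353 called lower spread over the whole range of expression, with Mettl21c at 4.44 and Myh2 at -2.00.

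Total counts ran from 14542548 to 40647589 in WT T3 and from 18166907 to 75766782 in KO T3. Mitochondrial transcripts took 11.2% to 29.5% of counts in WT T3 (median 22.8%) and 13.2% to 24.4% in KO T3 (median 16.1%), and 5 KO libraries lay below every WT library except replicate 5. On a principal component analysis, the third component (15.7% of the variance) held all KO libraries between 11.3 and 25.7. The WT libraries lay between -36.0 and -20.9 on it, except WT T3 replicate 5 at 11.8, which also stood alone on the first component at 81.9. On the second component (17.1% of the variance) 5 T3 libraries lay apart, replicates 1, 3 and 5 of WT and replicates 2 and 3 of KO. They lay between 13.2 and 50.9, and the other 8 between -28.6 and -9.78. Those 8 were replicates 2, 4 and 6 of WT and 1, 4, 5, 6 and 7 of KO. Without the 5 libraries apart, 656 genes were called, 456 of them among the 840. Without WT T3 replicate 5 alone the count was 1150, 576 higher and 574 lower.

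Thra (ENSMUSG00000058756, mm10 chromosome 11, 98740638 to 98768403), the gene that encodes TRa1, was not called under T3. It ranged from 19.3 to 58.9 CPM in WT (median 44.6) and from 21.2 to 39.8 in KO (median 34.3), and all 7 KO libraries lay inside the WT range. The log2 fold change was -0.39 ± 0.18 (adjusted p = 0.271), and the two-sided exact permutation test of log2 CPM gave p = 0.202. WT T3 replicate 1 was the lowest library, and without it the exact permutation p was 0.00758, with a log2 fold change of -0.56 and an adjusted p of 0.0251. Thra was called in 3 of 37 alternative fits, that one and 2 that did not leave out a single library. Counts per gene do not separate TRa1 from the other transcripts of Thra, and 5.70% of its exonic bases lie opposite exons of Nr1d1, so this is a weak check of the labels. Thrb was not called either, at -0.10 ± 0.16 (adjusted p = 0.818).

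Genes of calcium handling are given first. Sarcolipin (Sln, chromosome 9, 53850164 to 53854560), a small peptide that inhibits the calcium pump SERCA, ranged from 2.16 to 11.7 CPM in WT (median 5.02) and from 25.6 to 58.0 in KO (median 32.0). No library of either genotype reached the range of the other, and the log2 fold change was 2.57 ± 0.32 (adjusted p = 1.44e-05). Strit1 (chromosome 3, 63481112 to 63483879, under a model name in the deposited table), whose peptide DWORF relieves that inhibition, ranged from 5.64 to 12.3 CPM in WT (median 8.73) and from 17.7 to 41.7 in KO (median 28.2). The groups did not overlap, at 1.72 ± 0.22 (2.76e-05). An inhibitor of the pump and the peptide that opposes it were thus both higher in KO.

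Atp2a2, the SERCA pump of slow fibres and heart, ranged from 4200 to 7926 CPM in WT (median 6803) and from 10946 to 15251 in KO (median 13601). The groups were apart, at 1.00 ± 0.14 (adjusted p = 6.69e-05). Atp2a1, the pump of fast fibres, ranged from 7594 to 11936 CPM in WT (median 10317) and from 4543 to 9948 in KO (median 5979), and 2 KO libraries lay inside the WT range. At -0.58 ± 0.19 it missed the threshold (0.0749), though its adjusted p was 0.0204 without KO T3 replicate 4, 0.0300 without WT T3 replicate 5 and 0.0365 without WT vehicle replicate 4. Atp2a1 was called in 9 of 37 alternative fits, and 6 of these 9 were not fits that left out 1 library. Phospholamban (Pln), another SERCA inhibitor, was called higher at 1.77 ± 0.42 (0.0128), with a median of 0.769 CPM in WT and 2.64 in KO. The adjusted p was 0.102 with voom, 0.0856 with voom quality weights and 0.0542 without the 5 libraries apart. Of its exonic bases 59.6% lie opposite another annotated gene, and the strand setting of the counting was not given in the sources used here. Mrln, the gene of the inhibitor myoregulin, gave -0.05 ± 0.24 (0.945).

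Of the 8 tested genes of the SERCA list, 4 were higher and none was lower, and the median log2 fold change was 0.64 against -0.00 for all genes. With 1 library left out, 4 to 5 were higher and 0 to 1 lower. In the list of excitation-contraction coupling and calcium stores, 2 of 21 were higher and 1 was lower (median -0.12), and 2 were higher and 3 lower without WT T3 replicate 5. Over all fits that left out 1 library the counts were 1 to 2 higher and 0 to 3 lower. Casq2, the calcium store protein of slow fibres and heart, was higher at 0.80 ± 0.17 (adjusted p = 0.00379), with 1 KO library inside the WT range. It was not called without the 5 libraries apart (0.151) or with only the 8 other T3 libraries (0.119). Ryr3, a calcium release channel, gave 2.05 ± 0.52 (0.0169, and 0.0521 without WT T3 replicate 4 and 0.0678 with only the T3 groups fitted). Casq1, the fast-fibre calsequestrin, was lower at -0.45 ± 0.12 (0.0249, and 0.0509 without KO T3 replicate 2). Casq1 had an adjusted p of 0.105 without the 5 libraries apart and of 0.0948 with total-count scaling.

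The called contractile genes split by fibre type. Among 14 slow fibre genes, 6 were higher and none was lower (median 0.72). Among 14 fast fibre genes, 8 were lower and none was higher (median -1.15). Fold changes were positive for 11 slow genes and negative for 3, and negative for 11 fast genes and positive for 3. Slow troponin I (Tnni1) ranged from 890.4 to 1734 CPM in WT (median 1245) and from 2462 to 4391 in KO (median 3358), without overlap, at 1.39 ± 0.16 (adjusted p = 5.65e-06). Tnnc1, Myl2, Tpm3 and Tnnt1 encode slow troponin C, the slow regulatory light chain, a slow tropomyosin and slow troponin T. Their log2 fold changes were 1.13, 1.08, 1.05 and 0.94, and the groups were apart for each. Slow myosin (Myh7) ranged from 3021 to 7557 CPM in WT (median 4384) and from 5949 to 11741 in KO (median 10428). It was higher at 1.00 ± 0.19 (0.00169), with 1 KO library inside the WT range.

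On the fast side, the type IIa myosin Myh2 (chromosome 11, 67171027 to 67197517) ranged from 6455 to 12814 CPM in WT (median 9066) and from 1494 to 3407 in KO (median 2314). No libraries overlapped, and the log2 fold change was -2.00 ± 0.25 (adjusted p = 1.44e-05). The fast regulatory light chain Mylpf ranged from 2783 to 4484 CPM in WT (median 2981) and from 843 to 1268 in KO (median 940.4), also apart, at -1.71 ± 0.18 (3.83e-06). Fast troponin I (Tnni2), fast troponin T (Tnnt3), tropomyosin 1 (Tpm1) and the light chain Myl1 gave -1.59, -1.51, -1.50 and -1.34, each with the groups apart. The type IIx myosin Myh1 was lower at -1.39 ± 0.33 (0.0123, and 0.0551 without the 5 libraries apart). The type IIb myosin Myh4 spread from 24.2 to 2204 CPM within KO and was not called (0.13 ± 1.16). Myosin heavy chain genes are close copies of each other, so reads may be divided unevenly among them.

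Counts per kilobase of the deposited gene length gave the share of the slow form within each family and library. Slow myosin made up 12.8% to 22.5% of 4 adult myosin heavy chains in WT (median 17.4%) and 42.2% to 65.1% in KO (median 57.8%). Slow troponin I had a median share of 11.6% in WT (7.51% to 14.4%) and 48.9% in KO (36.5% to 61.0%). These ranges did not overlap, and neither did those of slow troponin T, with a median of 17.4% in WT and 53.0% in KO. The slow pump Atp2a2 took 24.0% to 32.3% of its pair in WT and 38.6% to 63.2% in KO, again apart. Troponin C was mostly slow in both genotypes, 71.4% to 94.4% in WT and 89.0% to 99.1% in KO, and these ranges overlapped. The shares are descriptions and carry no test.

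**Figure D2:**
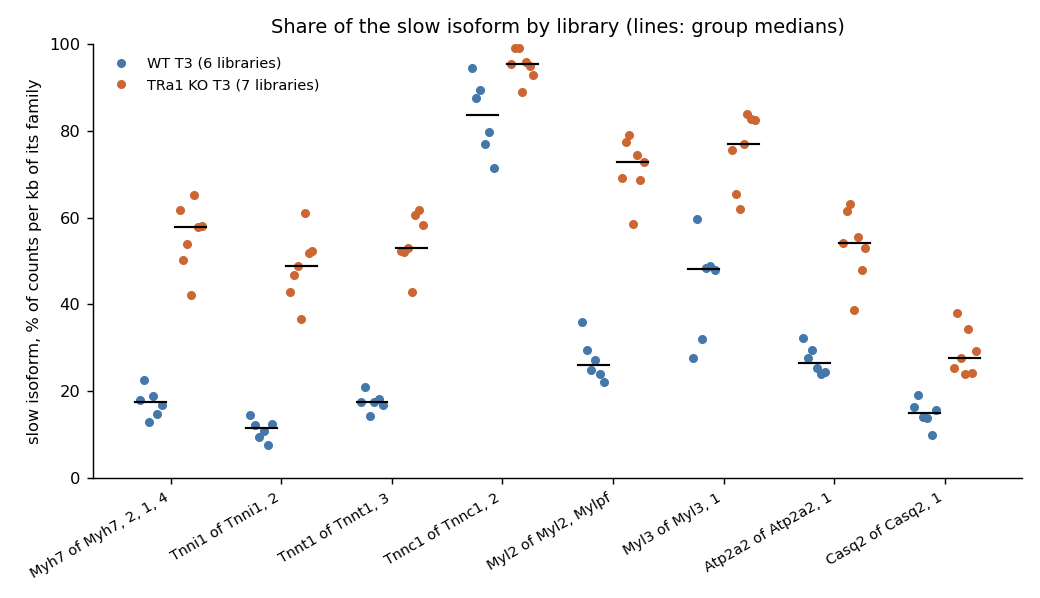
The y axis is the share of the slow isoform in the counts per kilobase of its family, in percent. Points are the 6 WT T3 and 7 TRa1 KO T3 libraries and lines are medians. For Myh7 the WT libraries reach 22.5% and the KO libraries start at 42.2%, while the ranges overlap for Tnnc1.

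In the vehicle libraries Myh7 had a median share of 28.9% in WT (14.8% to 36.8%) and 65.7% in KO (53.0% to 75.5%). In bulk muscle, fewer fibres of a type and less RNA per fibre cannot be told apart. Of 21 filament scaffold genes, 2 were lower, beside 2.34% of all genes, and none was higher (median -0.11). Without WT T3 replicate 5, 4 were lower (median -0.21). The 2 were Myom2, an M-band protein, at -0.82 ± 0.17 (adjusted p = 0.00500), and Pdlim3, a Z-disc protein, at -0.64 ± 0.16 (0.0138). Without the 5 libraries apart neither was called (0.0813 for Myom2 and 0.0971 for Pdlim3).

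Among 28 regulators of fibre type and oxidative metabolism, 1 was higher and 1 lower (median -0.10, and -0.17 without WT T3 replicate 5). The shares over all genes were 3.23% and 2.34%, so these counts were near the background. Prox1, a homeobox factor that promotes slow fibre genes, ranged from 7.02 to 19.9 CPM in WT (median 14.6) and from 26.2 to 42.7 in KO (median 35.3), apart, at 1.23 ± 0.19 (adjusted p = 0.000232). Sox6, a repressor of slow fibre genes, was lower at -0.72 ± 0.15 (0.00445), with a median of 91.1 CPM in WT and 51.4 in KO. Inside the WT range lay 6 KO libraries, and WT T3 replicate 5 was the lowest WT library at 43.6 CPM. Ppargc1a, a coactivator of mitochondrial genes, was not called (-0.25 ± 0.22, 0.637). Of the myogenic factors, Myod1 was lower at -1.37 ± 0.34 (0.0157) and Myog was higher at 0.95 ± 0.23 (0.0141), with 4 and 1 KO libraries inside the WT range. Myog had an adjusted p of 0.128 without the 5 libraries apart.

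Mettl21c (chromosome 1, 44009408 to 44020006), a lysine methyltransferase of muscle, led the increases among genes of 5 CPM or more. It ranged from 0.881 to 7.64 CPM in WT (median 3.33) and from 48.8 to 139 in KO (median 66.1). The lowest KO library stood above every WT library, at a log2 fold change of 4.44 ± 0.43 (adjusted p = 7.98e-07). Smyd2, another lysine methyltransferase, was higher at 0.82 ± 0.17 (0.00389, and 0.0941 without the 5 libraries apart), and 2 of 8 genes of their list were higher with none lower (median 0.11). Tecrl, a protein of the endoplasmic reticulum known from inherited arrhythmia, ranged from 2.83 to 10.5 CPM in WT (median 4.59) and from 19.9 to 55.4 in KO (median 24.97), at 2.48 ± 0.33 (3.27e-05).

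Nqo1 (chromosome 8, 107388225 to 107403206), the quinone reductase that is a standard target of the factor Nrf2, ranged from 17.8 to 26.6 CPM in WT (median 24.5) and from 61.8 to 87.4 in KO (median 75.8). The groups were apart, at 1.68 ± 0.13 (adjusted p = 1.94e-08). It was the only called gene of 25 in the Nrf2 antioxidant list, whose median was -0.00, or 0.12 without WT T3 replicate 5. Other increases were Scn3b (1.95), a sodium channel subunit, Cdkl1 (1.73), a kinase, Polq (1.64), a DNA polymerase, and Acot1 (1.68), an acyl-CoA thioesterase whose near copy Acot2 makes its count uncertain. The groups were apart for each of these. Ndrg4 gave 1.73 ± 0.44 (0.0173) with 3 KO libraries inside the WT range, and 0.0516 without WT T3 replicate 3, 0.0501 without WT T3 replicate 4, 0.0523 without KO T3 replicate 5 and 0.0536 with only the T3 groups fitted.

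**Figure D3:**
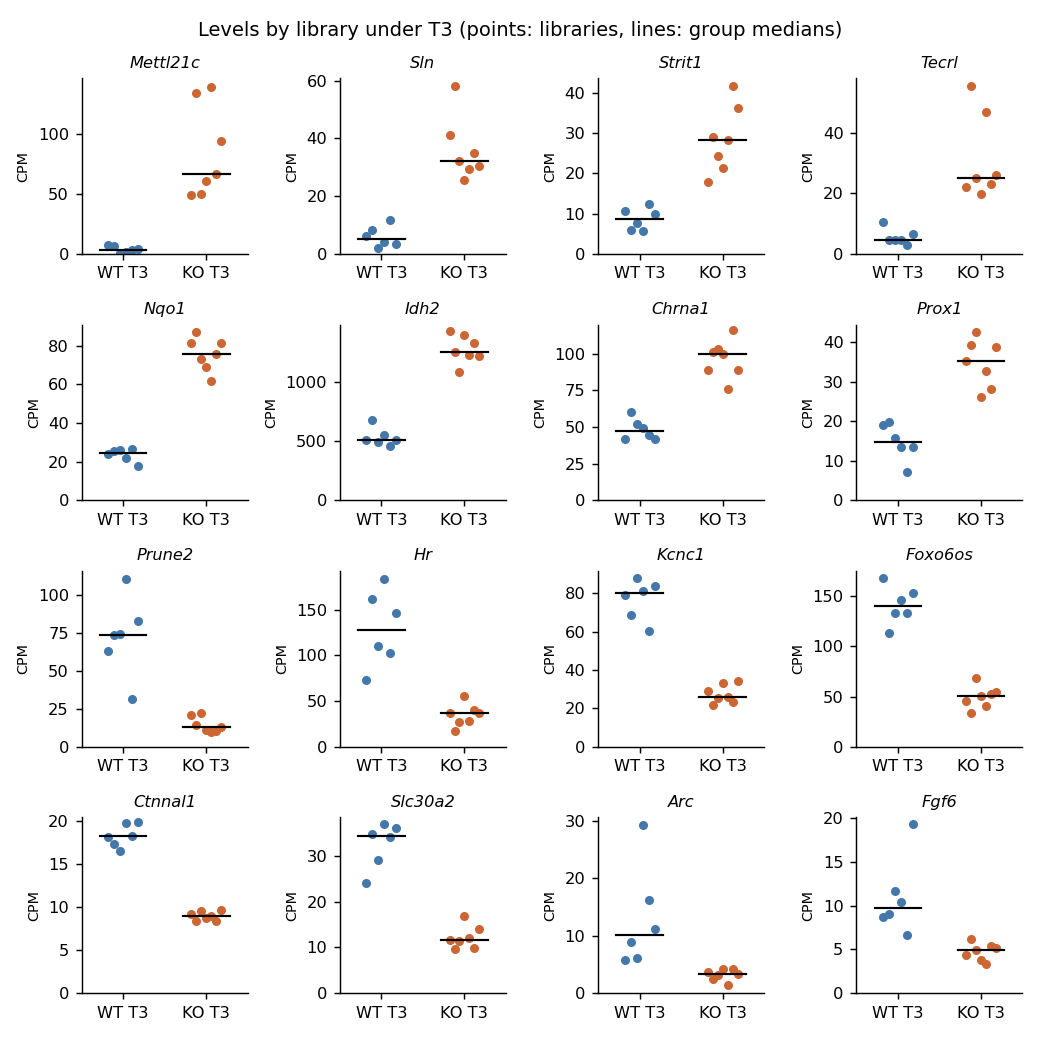
CPM of 16 genes, with 1 point for each of the 6 WT T3 and 7 TRa1 KO T3 libraries and a line at each group median. Mettl21c lies between 48.8 and 139 CPM in KO and at most at 7.64 in WT.

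Idh2 (chromosome 7, 80094846 to 80115392), the NADP-dependent isocitrate dehydrogenase of mitochondria, ranged from 459.8 to 675 CPM in WT (median 510.0) and from 1082 to 1429 in KO (median 1245). No libraries overlapped, and the log2 fold change was 1.26 ± 0.12 (adjusted p = 1.07e-06). In the list of isocitrate dehydrogenases and NADPH supply, 4 of 10 were higher and none was lower (median 0.14). With 1 library left out, 3 to 4 were higher and 0 to 1 lower. Me2, a mitochondrial malic enzyme, was higher at 0.77 ± 0.12 (0.000246). Me1, its cytosolic counterpart, gave 0.30 ± 0.09 (0.0435) and kept its call in 4 of the 22 fits that left out 1 library, with 0.147 without WT T3 replicate 4. Fitted with only the T3 groups, Me1 had an adjusted p of 0.182. Nnt, a proton-translocating transhydrogenase, gave 1.74 ± 0.34 (0.00197) at low levels, a median of 0.425 CPM in WT and 1.74 in KO, and a second entry of that name shares 47.5% of its exonic bases, so its level is uncertain. Its adjusted p without the 5 libraries apart was 0.0507.

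The TCA cycle list had 2 of 26 genes higher and 3 lower (median -0.20). These counts were 2 to 3 and 2 to 6 with 1 library left out. Idh3a, a subunit of the NAD-dependent isocitrate dehydrogenase, was lower at -0.66 ± 0.12 (adjusted p = 0.00136), with a median of 783 CPM in WT and 467 in KO and no overlap. Pdk1, a kinase that inhibits pyruvate dehydrogenase, was higher at 0.72 ± 0.11 (0.000208). The acetyl-CoA synthetases differed in direction, Acss1 of mitochondria higher at 1.27 ± 0.16 (2.68e-05) and the cytosolic Acss2 lower at -0.60 ± 0.09 (0.000232), each with the groups apart. Bdh1, which interconverts ketone bodies, was lower at -0.82 ± 0.17 (0.00491, and 0.0503 without the 5 libraries apart), and Adhfe1, a mitochondrial hydroxyacid transhydrogenase, was higher at 0.78 ± 0.08 (4.40e-06).

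In glucose uptake, glycolysis and glycogen metabolism, 3 of 30 genes were lower and none was higher (median -0.32). Without WT T3 replicate 5, 6 were lower and 1 higher (median -0.25), and over all fits that left out 1 library 2 to 6 were lower. The lower genes included Eno3, the muscle enolase, at -1.06 ± 0.26 (adjusted p = 0.0164) and Pfkfb1, which makes an activator of phosphofructokinase, at -0.56 ± 0.13 (0.0103). The adjusted p of these genes without the 5 libraries apart was 0.126 and 0.0699. Tbc1d1, a regulator of glucose transporter traffic that was named for its size of change, was lower at -1.45 ± 0.20 (5.79e-05), with a median of 63.2 CPM in WT and 21.1 in KO and no overlap. None of 20 fatty acid oxidation genes was called by edgeR (1 at an unadjusted p below 0.05, 0 called by DESeq2 and 0 by voom), and their median was 0.04. Ucp3, an uncoupling protein, gave -0.77 ± 0.28 (0.129, or 0.0490 without KO vehicle replicate 3) and Gpd2, of the glycerol-phosphate shuttle, -0.56 ± 0.24 (0.198, or 0.0319 without WT vehicle replicate 4). Each was called in 2 of 37 alternative fits, the 1 given here and 1 that did not leave out a single library.

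Nuclear genes of the respiratory chain had medians below 0. Complex I had 2 of 49 lower and none higher (median -0.37), and complexes II to V had 2 of 50 lower and none higher (median -0.34). Of all genes tested, 5.57% were called and 2.34% were lower, so these counts were near the background. The medians were -0.14 and -0.11 without WT T3 replicate 5. With 1 library left out, 1 to 6 genes of complex I and 1 to 6 of complexes II to V were lower. Cox7a1, a muscle form of a cytochrome oxidase subunit, stood at 1086 CPM in that library, against a median of 435 CPM in WT and 281 in KO (-0.94 ± 0.22, adjusted p = 0.0104, and 0.128 without the 5 libraries apart). Mitochondrial ribosomal proteins had 1 of 80 lower, no more than the background (median -0.26, and -0.10 without that library). Over the fits that left out 1 library, 0 to 7 were lower. The 11 tested protein-coding genes of the mitochondrial genome had a median of -0.49 with none called by edgeR (6 at an unadjusted p below 0.05, 0 called by DESeq2 and 0 by voom), and 4 were called lower without that library (median -0.64).

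**Figure D4:**
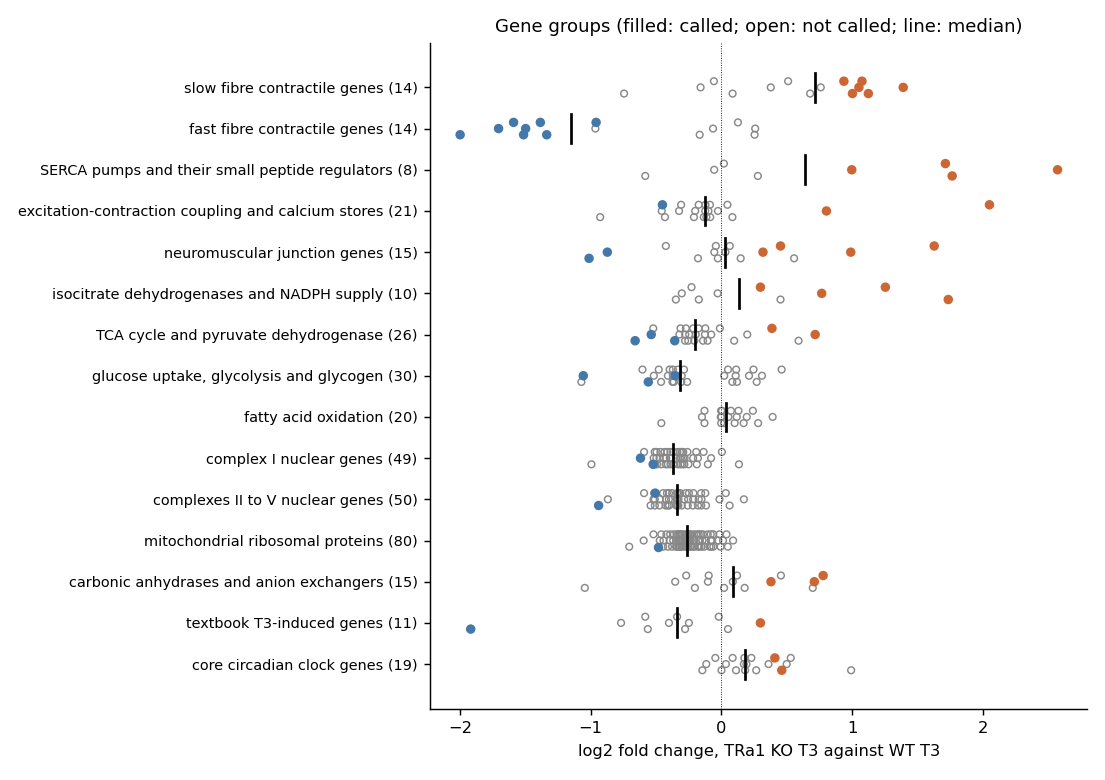
The x axis is the log2 fold change of TRa1 KO T3 against WT T3 and each row a gene group. Filled points are called genes, open points are not called, and the line in each row is the group median. Slow genes centre at 0.72, fast genes at -1.15, and respiratory chain genes at -0.37 and -0.34.

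Hr (hairless, chromosome 14, 70552212 to 70572900), a corepressor and standard T3 target, ranged from 72.9 to 184 CPM in WT (median 128) and from 17.0 to 55.2 in KO (median 36.4). The groups were apart, at -1.92 ± 0.33 (adjusted p = 0.000626). In the list of textbook T3-induced genes it was the 1 gene lower of 11, and Me1 was the 1 higher (median -0.34). With 1 library left out, 1 to 3 were lower and 0 to 1 higher. Klf9, another T3 target, had a median of 300.2 CPM in WT and 289 in KO, at -0.02 ± 0.11 (0.958). The deiodinases Dio2 and Dio3, which activate and inactivate the hormone, were not called (-0.26 ± 0.25 and -0.19 ± 0.35).

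Prune2 (chromosome 19, 16956118 to 17223932) ranged from 31.3 to 110.4 CPM in WT (median 73.6) and from 9.69 to 22.2 in KO (median 12.7). The groups did not overlap, at -2.34 ± 0.28 (adjusted p = 9.64e-06). Kcnc1 (chromosome 7, 46396497 to 46438704), a fast voltage-gated potassium channel, had a median of 80.3 CPM in WT and 26.0 in KO, apart, at -1.48 ± 0.14 (7.18e-07). Slc30a2, a zinc transporter, was lower at -1.42 ± 0.15 (4.69e-06), and Arc, an immediate early gene, at -2.03 ± 0.39 (0.00188). Of 18 immediate early genes 1 was called higher and 2 lower, beside 3.23% and 2.34% of all genes. Fold changes were positive for 13 of the 18 and negative for 5 (median 0.17). Ctnnal1 (chromosome 4, 56810935 to 56865188), an alpha-catenin-like protein, showed little spread: it ranged from 16.5 to 19.9 CPM in WT (median 18.2) and from 8.35 to 9.62 in KO (median 8.92), at -1.03 ± 0.08 (1.94e-08).

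The noncoding transcript Foxo6os (chromosome 4, 120291350 to 120303892) ranged from 113 to 168 CPM in WT (median 140.2) and from 33.7 to 68.7 in KO (median 50.9). The groups did not overlap, at -1.52 ± 0.22 (adjusted p = 9.83e-05). Its neighbour Foxo6 (chromosome 4, 120267079 to 120287349), a Forkhead factor, was lower at -1.30 ± 0.36 (0.0308), but its adjusted p was 0.0551 without WT T3 replicate 4 and 0.0533, 0.0660 and 0.0600 without KO T3 replicates 5, 6 and 7 in turn. Foxo3, a factor that drives atrophy and autophagy genes, was higher at 0.51 ± 0.11 (0.00562). Gabarapl1 and Bnip3, which act in autophagy and mitophagy, were higher at 0.90 ± 0.17 (0.00163) and 0.71 ± 0.14 (0.00169). Of their exonic bases 28.32% and 22.25% lie opposite another annotated gene. Gabarapl1 and Bnip3 were the 2 higher of 20 in the autophagy list, beside 3.23% of all genes, with none lower (median 0.09). In the fit without WT T3 replicate 5, 2 were lower. Without the 5 libraries apart the adjusted p was 0.136 for Foxo3, 0.0792 for Foxo6 and 0.0819 for Bnip3.

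A noncoding gene outside the naming rule was singled out after its values were seen. B930025P03Rik (chromosome 8, 10870422 to 10882454, annotated as a lincRNA) ranged from 10.3 to 13.6 CPM in WT (median 12.9) and from 0.140 to 0.686 in KO (median 0.209). That is 156 to 487 counts per WT library against 6 to 22 per KO library, at -5.35 ± 0.35 (adjusted p = 2.59e-09). In the vehicle libraries it held at most 0.250 CPM in WT and 0.174 in KO. The difference between the T3 responses of the genotypes was -3.97 ± 1.29 and was not called (1.00).

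At the neuromuscular junction 4 of 15 genes were higher and 2 lower (median 0.03), and 4 were higher and 4 lower without WT T3 replicate 5. Chrna1, the alpha subunit of the muscle acetylcholine receptor, ranged from 41.9 to 60.5 CPM in WT (median 47.0) and from 75.6 to 116 in KO (median 100.03), apart, at 0.99 ± 0.10 (adjusted p = 2.11e-06). Colq, the collagen tail that anchors acetylcholinesterase, was higher at 1.63 ± 0.21 (2.31e-05), and Chrnd, the delta subunit, at 0.45 ± 0.11 (0.0141, and 0.0730 without the 5 libraries apart). Chrnb1, the beta subunit, was lower at -0.87 ± 0.15 (0.000519), so subunits of 1 receptor differed in direction. Musk, the kinase that clusters the receptor, was called lower at -1.01 ± 0.23 (0.00989), with a median of 55.7 CPM in WT and 27.6 in KO. All 7 KO libraries lay inside the WT range, and WT T3 replicate 5 was the lowest WT library at 15.0 CPM. With only the T3 groups fitted, Musk had an adjusted p of 0.0504.

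Of the secreted factors, Ostn (osteocrin, a peptide of muscle and bone) had a median of 34.8 CPM in WT and 77.5 in KO, apart, at 1.16 ± 0.14 (adjusted p = 1.88e-05). Dkk2, a modulator of the Wnt pathway, had a median of 29.95 CPM in WT and 75.01 in KO, apart, at 1.16 ± 0.21 (0.00104). Fgf6, a growth factor of muscle, was lower at -1.21 ± 0.24 (0.00205), and Vegfa, the angiogenic factor, at -0.56 ± 0.14 (0.0147, and 0.0778 with total-count scaling). The carbonic anhydrases Car3 and Car2, which hydrate carbon dioxide, were higher at 0.78 ± 0.14 (0.000926) and 0.71 ± 0.09 (2.71e-05), and with the sodium-proton exchanger Slc9a2 they made 3 of 15 higher and none lower (median 0.09). Cry2, a repressor of the circadian clock, was higher at 0.46 ± 0.09 (0.00183), with the groups apart.

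The muscle fibre identity markers summed to 41382 to 61171 CPM in WT and 33778 to 56477 in KO. Their median log2 fold change was -0.37, with 5 of 7 negative and 2 positive. None was called by edgeR (3 at an unadjusted p below 0.05, 2 called by DESeq2 and 0 by voom). In edgeR 2 were called lower without WT T3 replicate 5 (median -0.20). Of 10 endothelial markers, Emcn and Kdr were lower, at -0.59 ± 0.14 (adjusted p = 0.0146) and -0.68 ± 0.18 (0.0246). Kdr gave 0.0554, 0.0562, 0.0602 and 0.0724 without KO T3 replicates 2 and 6 and WT T3 replicates 6 and 3. Emcn and Kdr had an adjusted p of 0.135 and 0.0553 without the 5 libraries apart. All 10 endothelial markers had a negative fold change (median -0.28), and 1 to 4 were called lower with 1 library left out, the most without WT T3 replicate 5. They summed to 495 to 671 CPM in WT and 418 to 667 in KO. Ighm, the heavy chain of immunoglobulin M, was lower at -2.57 ± 0.56 (0.00642), and the adipocyte marker Adig at -1.14 ± 0.26 (0.00810). Neither list had 1 direction. Of 4 tested B cell and plasma cell markers, Ighm among them, 2 had a positive and 2 a negative fold change. Of 7 adipocyte markers 3 were positive and 4 negative (median -0.25, or 0.45 without WT T3 replicate 5). The macrophage marker Cd163 was higher at 0.66 ± 0.19 (0.0369), a call kept in 9 of the 22 fits that left out 1 library (0.122 without WT T3 replicate 4). Of the 10 macrophage markers 5 had a positive and 5 a negative fold change (median 0.11, or 0.47 without WT T3 replicate 5). Adig and Cd163 had an adjusted p of 0.147 and 0.255 without the 5 libraries apart. All 8 Schwann cell markers (median 0.54) and all 5 mast cell markers (0.27) had a positive fold change, and all 10 fibroblast markers a negative one (-0.25, or -0.05 without WT T3 replicate 5). Under vehicle the median was -0.42 for Schwann cell markers and -1.02 for mast cell markers, the reverse sign, and -0.10 for fibroblast markers. No other gene of the 14 marker lists was called, and the part of cell composition in the results was not tested.

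The ranges of the 2 T3 groups did not overlap for 379 genes, 248 higher in KO (1.64% of those tested) and 131 lower (0.869%), and 353 of them were also called. Of 215 tested genes within 5 Mb of Thra, 8 were called higher and 6 lower, a share close to the background, and their median was -0.04. These counts were 6 to 10 and 2 to 12 with 1 library left out.

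The vehicle groups share no library with the T3 groups. There 465 genes were called (3.08%), and 309 of them were also called under T3, which is 66.5% of the vehicle calls and 36.8% of the T3 calls. All 309 had the same direction, 166 higher and 143 lower. Of the 487 genes higher under T3, 97.5% had a positive fold change under vehicle, against 47.0% of all genes tested. Of the 353 lower genes, 98.3% had a negative fold change, against 53.0% of all genes. Median log2 fold changes under vehicle were 0.64 for the higher genes and -0.69 for the lower ones, beside 0.89 and -0.78 under T3. These genes were picked by the T3 test, which favours large T3 values, so the medians do not compare the treatments evenly. Sln, for example, gave 2.34 ± 0.35 under vehicle (adjusted p = 0.000436) and Kcnc1 -1.72 ± 0.18 (4.20e-06).

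**Figure D5:**
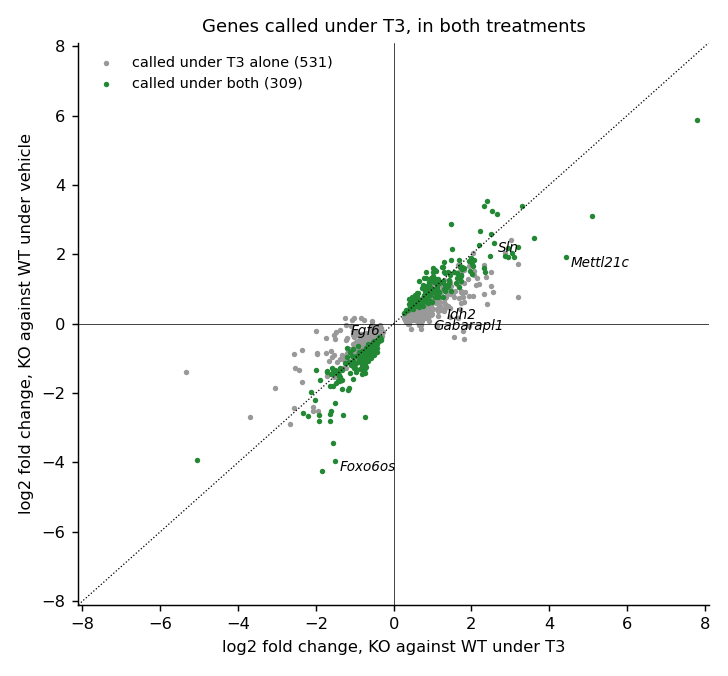
Genes called under T3, plotted by their log2 fold change between the genotypes, with T3 on the x axis and with vehicle on the y axis. The colours separate the 309 genes called under both treatments from the 531 called under T3 alone. Foxo6os lies at -1.52 and -3.96 and Mettl21c at 4.44 and 1.92.

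Whether the genotype difference depended on T3 was tested as the difference between the T3 responses of the genotypes. Foxo6os was the only gene called of 15082, with 371 at an unadjusted p below 0.05. Its level in KO was 1.71 ± 0.937 CPM with vehicle and 49.4 ± 11.2 with T3 (mean ± SD of 4 and 7 libraries). In WT it was 26.7 ± 6.75 and 141 ± 19.1 CPM (5 and 6 libraries). The genotype difference was smaller under T3, by 2.44 ± 0.37 on the log2 scale (adjusted p = 0.0164), though no gene was called without WT T3 replicate 2, WT vehicle replicate 4 or KO vehicle replicate 1. Mettl21c gave 2.53 ± 0.58, Idh2 0.83 ± 0.19 and Adhfe1 0.57 ± 0.13, each with the larger genotype difference under T3, and none passed (adjusted p = 0.488 for each). Idh2 stood at 2165 ± 436 CPM with vehicle and 533 ± 75.8 with T3 in WT, and at 2916 ± 357 and 1273 ± 118 in KO. Gabarapl1 and Fgf6 had genotype differences of 0.09 ± 0.20 and -0.03 ± 0.29 under vehicle, and their differences of response, 0.81 ± 0.26 and -1.18 ± 0.37, were not called (1.00).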

How the data were processed

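Gene counts for 22 soleus RNA-seq libraries were used as deposited by the authors, whole numbers with gene lengths in base pairs for 55487 genes. Per the labels' protocols the libraries were poly-A selected, stranded and read as 51-base pairs. Per the submitters' processing notes the tools were STAR 2.7.3a, featureCounts 1.6.4 and edgeR 3.26.8 with build mm10. Neither the strand setting nor the annotation release was given in the sources used here. Exons of another gene also lie opposite 29.96% of the exonic bases of Smyd2, 21.94% of Atp2a1 and 20.43% of Cdkl1. Whether reads were shared there was not tested.

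Libraries were grouped by genotype and treatment labels. With edgeR 4.0.16 in R 4.3.3, genes were filtered (filterByExpr, minimum count 10), scaled by TMM and fitted jointly over 4 groups with the quasi-likelihood test. No covariate was used. Calls needed a Benjamini-Hochberg adjusted p below 0.05. The procedure was tested on simulated data. Replicates differed by more than counting error in every pair.

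Genes of at least 5 CPM were named as the 15 largest changes each way among calls, the 10 smallest p-values and 10 called under both treatments. Up to 6 called genes per list and a few followed genes were added. Members and lists (42 pathways, 14 marker lists) were chosen with earlier results of these data known. Other scalings, filters, DESeq2 1.42.0, limma 3.58.1 (voom), sva 3.50.0, a GC and length offset, fewer groups and leaving out each library were tried. Using only the 8 other T3 libraries was added after seeing the data. Promoters came from RefSeq GRCm38.p6. Not every gene picked by this rule is described in the text.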

Additional observations from a re-analysis of the deposited data

Results flagged for a closer look

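Among 248 checks of single libraries within the T3 groups, 21 libraries' values stood far from the rest of their group, and chance marks about 1 in 20 groups. WT T3 replicate 5 accounted for 15 of them. There Atp2a2 (4200 CPM), Pdk1 (124.4), Bnip3 (154.5), Thrb (24.27), Sox6 (43.62), Musk (15.0), Kcnq5 (12.8) and Gpd1l (29.14) were low. Ndufa1 (207.1), Ndufb5 (819.2), Atp5o (800.4), Cox7a1 (1086), Mylpf (4484), Tnni2 (8887) and Pln (1.684) were high in that library.

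Single values elsewhere were Etv5 at 9.441 CPM in WT T3 replicate 6, Serpinb8 at 3.069 in WT T3 replicate 2 and Myh4 at 65.37 in WT T3 replicate 1, all low. In KO, Col24a1 was low at 0.6318 in replicate 5, and Prr33 (82.77) and Adig (11.5) were high in replicate 4. Foxo6os differed between genotypes in its T3 response, by 2.444 on the log2 scale in edgeR's test of the difference (KO response minus WT response).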

How the results depend on the processing

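Of 113 named genes called under T3, 66 were called in all 37 alternatives and 92 in every fit that left out 1 library. The T3 count of 840 was 1459 with total-count scaling, 1478 with voom quality weights, 1276 with 1 surrogate variable, 1327 with the GC and length offset, 539 with only the T3 groups and 526 with only the 8 other T3 libraries. It ran from 663 to 1150 when 1 library was left out. The cause was not tested. The vehicle count of 465 was 728 with DESeq2, 1971 with quality weights, 841 with the surrogate variable, 1032 without the 5 libraries apart, 795 with the offset, 709 with only the vehicle groups, and 212 to 788 with 1 library left out. The count for the difference of responses, 1, was 2 with no filter, with quality weights and with the offset, 3 with DESeq2, 0 without the 5 libraries apart, and 0 to 2 with 1 library left out.

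The exact permutation p of Thra ran from 0.00758 to 0.364 with 1 library left out. Signs turned only for genes that were not called. Mrln gave 0.0772 with total counts, 0.0486 with voom, 0.33 with quality weights, 0.0431 with the surrogate variable, 0.38 without the 5 libraries, 0.20 with the offset, 0.38 with the 8 libraries, and -0.17 to 0.25 with 1 left out. With total counts Thrb gave 0.0682 and Klf9 0.14. With 1 library left out Klf9 gave -0.0999 to 0.00478 and Dio3 -0.44 to 0.0122. Myh4 gave -0.71 with voom, -0.65 with quality weights, -0.23 without the 5 libraries, -0.23 with the 8 libraries, and -0.42 to 0.35 with 1 left out. No paired analysis was possible because the replicate numbers are only names given in accession order. Depth limits genes below about 1 CPM, where a library holds few counts.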

Other observations

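Several genes of low level, chosen after their values were seen, separated the genotypes almost completely. Htr1f, a serotonin receptor, had 0 counts in all 6 WT T3 libraries and 7 to 89 in the KO T3 libraries (0.370 to 1.40 CPM). With vehicle it had 0 to 2 counts per WT library and 21 to 31 per KO library. Gsta2, a glutathione transferase with close copies, had 2 to 17 counts in WT T3 and 48 to 237 in KO T3 (3.03 ± 0.37, adjusted p = 1.44e-05 in edgeR). Helt, a transcription factor, went the other way, with 8 to 40 counts in WT T3 and 0 to 4 in KO T3. Their fold changes rest on few counts.

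Mitochondrial carriers split within a pair. Slc25a13 and Slc25a12 encode the aspartate-glutamate carriers. Slc25a13 had a median of 4.25 CPM in WT and 7.41 in KO (0.88 ± 0.14, adjusted p = 0.000252), and Slc25a12 had a median of 524 CPM in WT and 372 in KO (-0.53 ± 0.12, 0.00847). The groups did not overlap for either gene. Among 35 collagen genes, 3 were higher and 3 lower (median -0.13), with Col23a1 at 1.29 ± 0.14 (3.72e-06) and Col15a1 at -0.92 ± 0.14 (0.000246). None of 85 cytosolic ribosomal protein genes was called by edgeR (2 at an unadjusted p below 0.05, 0 called by DESeq2 and 0 by voom), with a median of -0.07 (0.14 with 1 gene called higher without WT T3 replicate 5), nor any of 25 heat shock genes (0 at an unadjusted p below 0.05, 0 called by DESeq2 and 0 by voom), with a median of 0.04.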
